A study of Homo sapiens with 6 samples.

Results

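The platelet-derived growth factor (PDGF) genes were examined in Mum-2b cells as 6 genes chosen by symbol, out of 58735 genes in the deposited count table. They are the 4 ligand genes PDGFA, PDGFB, PDGFC and PDGFD and the 2 receptor genes PDGFRA and PDGFRB, and each symbol matched 1 gene. All 4 ligand genes passed the filter on low counts and neither receptor gene did. The family was proposed because PDGFB had been among the largest falls in an earlier look at the same contrast. The knockdown differences of the 6 members are therefore given as a description, with no p-value.

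Gene expression was measured by RNA-seq in 6 libraries of Mum-2b, a cell line labelled as human uveal melanoma. The knockdown group (n = 3) carries the genotype NELFCD knockdown, made with a short hairpin RNA (shRNA) for which the labels give 1 hairpin number, so effects of the hairpin and of its target cannot be told apart. The control group (n = 3) is labelled WT and named NC, and the labels give no further treatment for either group. Nothing in the labels says whether the replicates of a group were separate cultures, so p-values measure only the spread between these libraries, which may be technical.

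NELFCD, the target of the hairpin, codes for part of NELF, a complex that pauses RNA polymerase II early in transcription. It was at 20.7, 37.4 and 40.3 CPM (counts scaled to a common library size) in knockdown replicates 1 to 3, against 65.5, 88.3 and 83.5 CPM in control replicates 1 to 3, with no overlap. Total counts ran from 14306733 to 16656630 per library, and 14844 genes were tested. Replicate 1 of both groups stood apart from replicates 2 and 3, with 61.8% of genes differing in edgeR, so each ligand is given by library and by same-numbered pair. Of 7 melanocyte markers, MLANA, TYRP1 and MITF averaged at least 1 CPM, while PMEL, TYR, DCT and SOX10 did not. Their summed level was 7.61 to 18.3 CPM in knockdown libraries and 7.5 to 10.7 CPM in control libraries. The libraries report the RNA of a whole culture, in which fewer cells of a type and less RNA per cell cannot be told apart.

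PDGFs are secreted, disulfide-linked dimers that bind and pair receptor tyrosine kinases on the cell surface. PDGF-A and PDGF-B chains are cut from their precursors inside the cell, while PDGF-C and PDGF-D are secreted with a CUB domain that a protease must remove before they can activate a receptor. The receptors sit mainly on mesenchymal cells such as fibroblasts and pericytes, on which PDGF secreted by tumour cells or endothelium can act. The viral homologue of PDGFB, v-sis, was an early example of a growth factor gene that transforms cells.

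The promoters of an expressed ligand gene and of a receptor gene near 0 counts are shown for comparison. Each window holds the 250 bases before the RefSeq start site nearest to the annotated gene start (GRCh38.p14), and is printed 5' to 3' on the gene's strand up to the first base of the GENCODE gene. Capitals mark the GC box GGGCGG, or CCGCCC where it lies on the other strand, the recognition core of SP1-type factors. The PDGFA stretch is chr7:520297-520476, minus strand, and the PDGFRB stretch is chr5:150155873-150156095, minus strand.
PDGFA: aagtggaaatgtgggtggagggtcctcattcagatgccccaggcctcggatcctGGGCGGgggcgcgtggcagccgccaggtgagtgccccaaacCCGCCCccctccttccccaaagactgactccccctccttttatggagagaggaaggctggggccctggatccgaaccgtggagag
PDGFRB: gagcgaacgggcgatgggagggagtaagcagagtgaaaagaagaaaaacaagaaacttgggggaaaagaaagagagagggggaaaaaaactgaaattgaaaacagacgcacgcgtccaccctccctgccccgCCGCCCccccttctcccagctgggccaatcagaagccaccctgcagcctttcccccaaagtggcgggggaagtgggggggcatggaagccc
The whole PDGFA window held 4 GC boxes, of which 2 are printed, and 17 CpG dinucleotides at 68.8% G and C. The whole PDGFRB window held 1 GC box and 9 CpG dinucleotides at 58.4% G and C. At least 1 GC box was present in 42.6% of the 35114 promoter windows of this length, and the median window had 11 CpG dinucleotides. The EGR1 core GCGGGGGCG, searched on both strands, matched at 2 places in the PDGFA window, both overlapping GC boxes, and at 0 places in the PDGFRB window, where 4.72% of all windows had a match. The element CCACCC, also searched on both strands, matched at 1 place in PDGFA and 2 in PDGFRB, against 31.3% of all windows, and TATAAA matched in neither, against 10.7%. Of the other members, the PDGFD window held 1 GC box and 23 CpG dinucleotides and the PDGFRA window held 0 GC boxes and 8 CpG dinucleotides. The promoters of PDGFB and PDGFC were not analysed here. A match describes the letters of the window and shows no binding.

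Ligand transcripts were present and receptor transcripts were close to absent in every library. Levels of the PDGF genes are compared with one another only as FPKM, fragments scaled by gene length and library size, as the authors deposited them. Marker sums and other receptor kinases are given in CPM, which is not scaled by gene length. PDGFA averaged 12.3 ± 3.76 FPKM in knockdown and 17.2 ± 7.35 FPKM in control libraries (SD, n = 3 each). PDGFC averaged 9.91 ± 4.61 FPKM in knockdown and 15.9 ± 4.37 FPKM in control libraries, and PDGFB 3.66 ± 1.91 FPKM in knockdown and 12.6 ± 7.60 FPKM in control libraries. PDGFD was the lowest ligand in each of the 6 libraries, at 1.25 ± 0.233 FPKM in knockdown and 1.08 ± 0.321 FPKM in control libraries. The means of PDGFA, PDGFC and PDGFB in control libraries differed by less than their spread. By mean FPKM over the 6 libraries, PDGFA lay above 75.4% of the 12160 protein-coding genes tested, PDGFC above 72%, PDGFB above 59.0% and PDGFD above 18%.

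**Figure D1:**
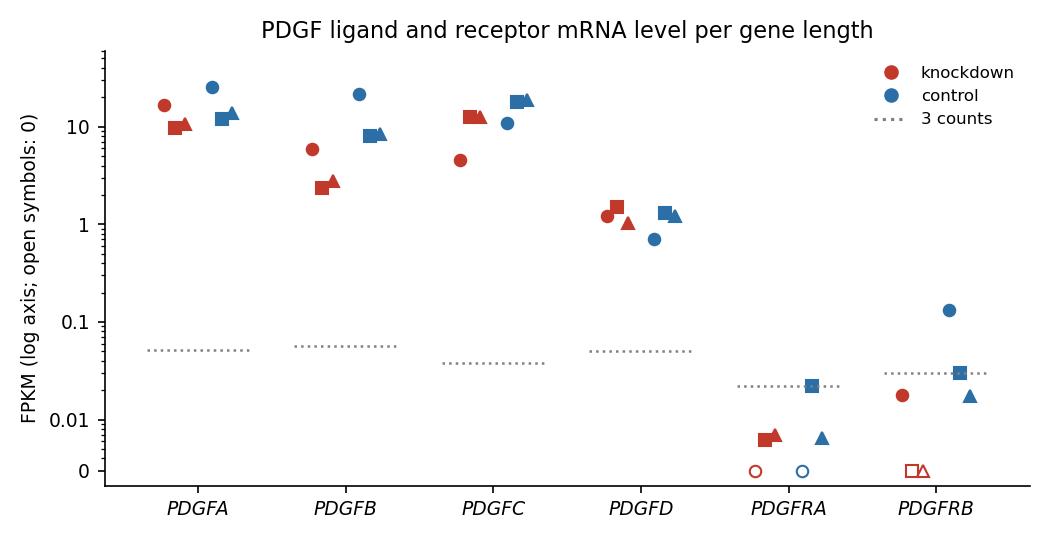
Level of each PDGF gene in each library as FPKM on a log axis, with knockdown libraries left of control libraries, a symbol for each replicate, open symbols for a value of 0, and a dotted line at the largest FPKM that 3 counts give in any library. The 4 ligand genes lie above their line in all libraries, while of the receptor values only PDGFRB in control replicate 1 (0.132 FPKM) lies clearly above it.

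PDGFRA (ENSG00000134853, chromosome 4, 54229097 to 54298247, plus strand, hg38) encodes the receptor that binds PDGF-A, PDGF-B and PDGF-C chains. It had 0, 1 and 1 counts in knockdown replicates 1 to 3, against 0, 3 and 1 counts in control replicates 1 to 3. No library exceeded 3 counts, the number taken as the limit of detection, which corresponds to 0.0186 to 0.0220 FPKM for this gene. PDGFRB (ENSG00000113721, chromosome 5, 150113837 to 150155872, minus strand, hg38) encodes the receptor that binds PDGF-B and PDGF-D chains. It had 2, 0 and 0 counts in knockdown replicates 1 to 3, against 14, 3 and 2 counts in control replicates 1 to 3. The single library above the limit was control replicate 1, at 0.959 CPM (95% exact Poisson interval 0.525 to 1.61). Summed over libraries, PDGFRB had 2 counts in the knockdown and 19 in the control, a ratio of 0.102 with a 95% exact interval of 0.0115 to 0.423. For PDGFRA the sums were 2 counts in the knockdown and 4 in the control, a ratio of 0.484 (0.0438 to 3.38). These intervals reflect counting error alone, because without molecular identifiers some reads may be copies of 1 molecule, and 14 of the 19 control counts of PDGFRB came from 1 library.

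PDGFB differed most between groups among the 4 ligand genes. PDGFB (ENSG00000100311, chromosome 22, 39223359 to 39244751, minus strand, hg38) encodes the PDGF-B chain, whose homodimer activates both receptors. It was at 22.9, 8.91 and 10.5 CPM in knockdown replicates 1 to 3, against 81.9, 30.1 and 31.3 CPM in control replicates 1 to 3. Every knockdown library lay below every control library, as for 7.38% of all genes tested, and knockdown replicate 1 came closest to the controls. Raw counts were 345, 147 and 153 in knockdown replicates 1 to 3, against 1195, 425 and 501 in control replicates 1 to 3. The mean was 14.1 ± 7.68 CPM in knockdown and 47.8 ± 29.6 CPM in control libraries (SD, n = 3 each), which leaves 29.5% of the control level. Replicate 1 of each group was the highest of its group, and within pairs the difference varied little. Pair 1 kept 28.0% of the control level (95% exact interval of counting error 24.8% to 31.6%). Pairs 2 and 3 kept 29.6% (24.4% to 35.8%) and 33.5% (27.7% to 40.2%). The log2 fold change in edgeR was -1.76 ± 0.553 (SE) without a replicate term and -1.73 ± 0.0936 (SE) with the replicate number as a block.

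**Figure D2:**
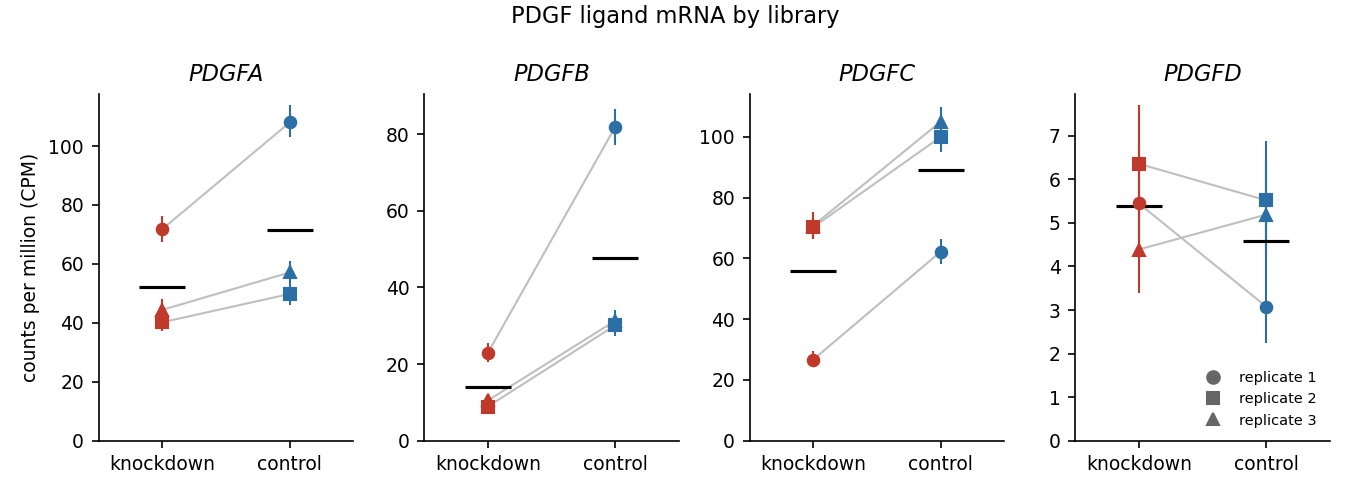
Level of the 4 ligand genes in each library in CPM, with knockdown libraries left and control libraries right, grey lines joining libraries of the same replicate number, bars for the 95% Poisson interval of counting error and black lines for the group means. PDGFB stands at 28.0%, 29.6% and 33.5% of the control library in pairs 1 to 3, while the PDGFD intervals overlap in pairs 2 and 3.

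PDGFA and PDGFC were lower in the knockdown library of all 3 pairs, by less than PDGFB. PDGFA (ENSG00000197461, chromosome 7, 497258 to 520296, minus strand, hg38) encodes the PDGF-A chain, which acts through PDGFRA. It was at 71.8, 40.2 and 44.4 CPM in knockdown replicates 1 to 3, against 108, 49.8 and 57.1 CPM in control replicates 1 to 3. The groups overlapped, because knockdown replicate 1 lay above control replicates 2 and 3. Pairs 1 to 3 kept 66.4% (61.4% to 71.8%), 80.6% (72.4% to 89.8%) and 77.8% (70.2% to 86.1%) of the control level. PDGFC (ENSG00000145431, chromosome 4, 156760454 to 156971394, minus strand, hg38) encodes a CUB-domain ligand of PDGFRA. It was at 26.7, 70.3 and 70.8 CPM in knockdown replicates 1 to 3, against 62.2, 100 and 105 CPM in control replicates 1 to 3. Here too the groups overlapped, because control replicate 1 lay below knockdown replicates 2 and 3. Pair 1 kept 43.0% of the control level (38.1% to 48.4%), while pairs 2 and 3 kept 70.1% (64.8% to 75.8%) and 67.4% (62.3% to 72.9%). Log2 fold changes with the block were -0.43 ± 0.0774 (SE) for PDGFA and -0.74 ± 0.127 (SE) for PDGFC, against -0.46 ± 0.371 (SE) and -0.67 ± 0.412 (SE) without it. A knockdown library below the control library in all 3 pairs was seen for 26.9% of all genes tested.

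PDGFD (ENSG00000170962, chromosome 11, 103907186 to 104164379, minus strand, hg38), the other CUB-domain ligand and a partner of PDGFRB, had no common direction. It was at 5.45, 6.36 and 4.39 CPM in knockdown replicates 1 to 3, against 3.08, 5.52 and 5.19 CPM in control replicates 1 to 3. The groups overlapped, and the knockdown library was higher in pairs 1 and 2 and lower in pair 3. Pair 1 stood at 177% of the control level (121% to 260%), pair 2 at 115% (85.1% to 156%) and pair 3 at 84.5% (60% to 119%). With 45 to 105 counts per library its log2 fold change with the block was 0.24 ± 0.224 (SE). Of the 4 ligand genes, PDGFA, PDGFB and PDGFC passed an adjusted p of 0.05 in edgeR with the block, where 13.5% of all genes did and 8.01% fell. Without the block 0 of the 4 passed in edgeR or in DESeq2, as edgeR then called 0 genes in all (0%, with 954 at an unadjusted p under 0.05) and DESeq2 called 161. Because this contrast chose the family, nothing is read from these counts.

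The summed ligand level was lower in the knockdown, and PDGFB made up less of it within each pair. Summed over the 4 genes, ligand FPKM was 28.3, 26.1 and 27.0 in knockdown replicates 1 to 3, against 58.6, 39.5 and 42.2 in control replicates 1 to 3. Every knockdown sum was lower than every control sum. PDGFB supplied 20.7%, 9.07% and 10.3% of that sum in knockdown replicates 1 to 3, against 36.5%, 20.4% and 19.8% in control replicates 1 to 3. The groups overlapped on this share, because knockdown replicate 1 lay above control replicates 2 and 3. PDGFB over PDGFA was 0.352, 0.245 and 0.261 in knockdown replicates 1 to 3, against 0.835, 0.666 and 0.606 in control replicates 1 to 3, with no overlap. PDGFC took 16.2%, 48.1% and 46.6% of the sum in knockdown replicates 1 to 3, against 18.6%, 45.7% and 44.6% in control replicates 1 to 3. Its share was thus low in replicate 1 of both groups and close between the groups within each pair. From high to low the order was PDGFA, PDGFB, PDGFC, PDGFD in replicate 1 of both groups, and PDGFC, PDGFA, PDGFB, PDGFD in replicates 2 and 3 of both groups.

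**Figure D3:**
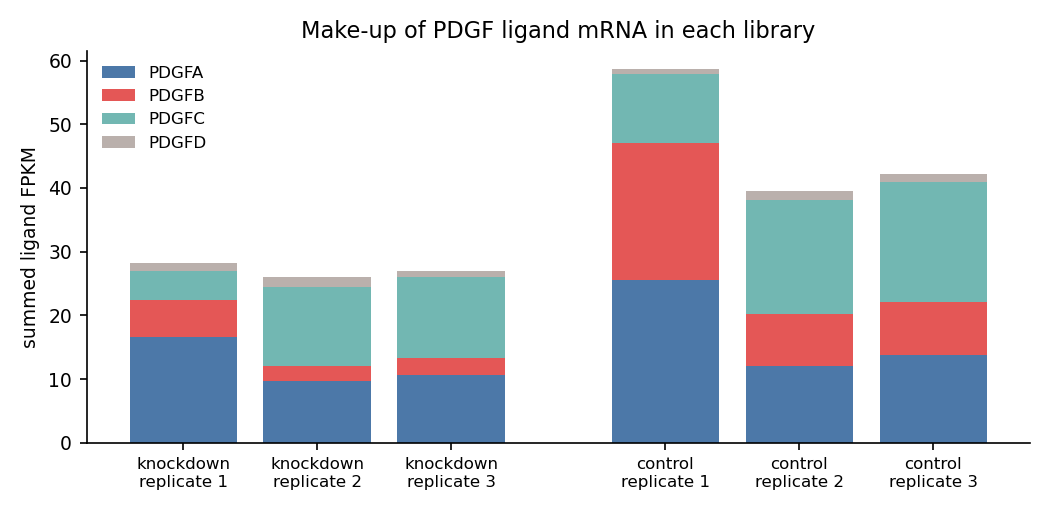
Stacked bars of deposited FPKM for PDGFA, PDGFB, PDGFC and PDGFD in each library, with knockdown replicates 1 to 3 left and control replicates 1 to 3 right. The knockdown bars reach 26.1 to 28.3 FPKM and the control bars 39.5 to 58.6 FPKM, and the PDGFB segment takes 2.36 to 5.85 FPKM in knockdown bars and 8.05 to 21.4 FPKM in control bars.

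A contrast that played no part in choosing the family, replicate 1 against replicates 2 and 3 with the group as a term, parted the ligands. PDGFB was higher in replicate 1, with a log2 difference of 1.35 ± 0.0897 (SE, edgeR adjusted p = 4.4e-08), and so was PDGFA, at 0.90 ± 0.0810 (SE, edgeR adjusted p = 7.5e-07). PDGFC was lower in replicate 1, at -1.02 ± 0.134 (SE, edgeR adjusted p = 0.00017). PDGFD did not pass, at -0.35 ± 0.235 (SE, edgeR adjusted p = 0.22). For PDGFA, PDGFB and PDGFC the direction held in both groups, while knockdown replicate 1 of PDGFD lay between knockdown replicates 2 and 3. Of all genes tested, 31.6% were higher and 30.2% lower in replicate 1, so a difference there was common. Replicate 1 is 1 library per group, and this fit has 3 residual degrees of freedom. Its p-values thus rest partly on replicates 2 and 3, whose counts were close to sampling noise. An interaction term then compared the knockdown difference of pair 1 with that of pairs 2 and 3. Unlike the replicate 1 contrast, it is built from the knockdown differences by which the family was proposed. Its results for the members are therefore a description. It passed for PDGFC, at -0.68 ± 0.118 (SE, edgeR adjusted p = 7.2e-06), where 13% of all genes passed, 7.96% with a more negative and 5.06% with a more positive difference in pair 1. It did not pass for PDGFB (-0.17 ± 0.166, SE, edgeR adjusted p = 0.6), PDGFA (-0.25 ± 0.112, SE, edgeR adjusted p = 0.15) or PDGFD (0.80 ± 0.4, SE, edgeR adjusted p = 0.2). In the interaction a gene's own spread has 2 residual degrees of freedom, from replicates 2 and 3 of each group. Pair 1 has no replicate of its own. The edgeR test combines a gene's spread with a trend over all genes tested.

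Across the 6 libraries the log2 CPM of PDGFA and PDGFB had a Pearson correlation of 0.88, and that of PDGFB and PDGFC one of 0.033. These 6 points share the replicate 1 split and the group difference and are given as a description. The protein-coding genes with the pattern most like PDGFB over the 6 libraries were IRF2BP2 (r = 0.9986), RNF11 (r = 0.9984), the collagen VI chain gene COL6A1 (r = 0.9977), CELSR2 (r = 0.9969) and UBE2H (r = 0.9968). COL6A1 was at 54.6, 19.0 and 19.0 CPM in knockdown replicates 1 to 3, against 281, 82.5 and 85.0 CPM in control replicates 1 to 3. Its groups did not overlap, and its log2 fold change with the block was -2.22, while those of the other 4 lay between -0.93 and -0.19. For PDGFA the closest were ZDBF2 (r = 0.9978) and CIC (r = 0.9976), for PDGFC the lipase gene MGLL (r = 0.9997) and ENPP1 (r = 0.9988), and for PDGFD ARL14EP (r = 0.9824) and HRCT1 (r = 0.9793).

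The tested genes around PDGFB on chromosome 22 had log2 fold changes from -2.12 to 0.02 with the block, and SYNGR1 was the lowest. Within 250 kb of the ends of PDGFB 10 other genes were tested, and in edgeR with the block 1 fell and 0 rose, with a median log2 fold change of -0.20, where 8.01% of all genes fell and 5.48% rose. SYNGR1, which encodes a synaptic vesicle membrane protein and starts 105 kb from the PDGFB start, was at 1.33, 0.485 and 0.480 CPM in knockdown replicates 1 to 3, against 5.21, 2.48 and 2.19 CPM in control replicates 1 to 3. Its groups did not overlap, and its log2 fold change was -2.12 ± 0.294 (SE, edgeR adjusted p = 0.0038 with the block). The tested genes nearest to PDGFB were RPL3, SNORD83A and CBX7, at log2 fold changes of 0.02, -0.12 and -0.05. TAB1 was at -0.13, and the antisense gene AL031846.2 at -0.55 with 1.07 CPM in knockdown and 1.74 CPM in control libraries. APOBEC3B, APOBEC3C, APOBEC3F and APOBEC3G were at -0.34, -0.14, -0.27 and -0.54, with counts made uncertain by reads that these paralogs may share. None of these 9 passed in edgeR with the block (adjusted p from 0.08 to 0.85), and without the block edgeR and DESeq2 called 0 of the 10.

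**Figure D4:**
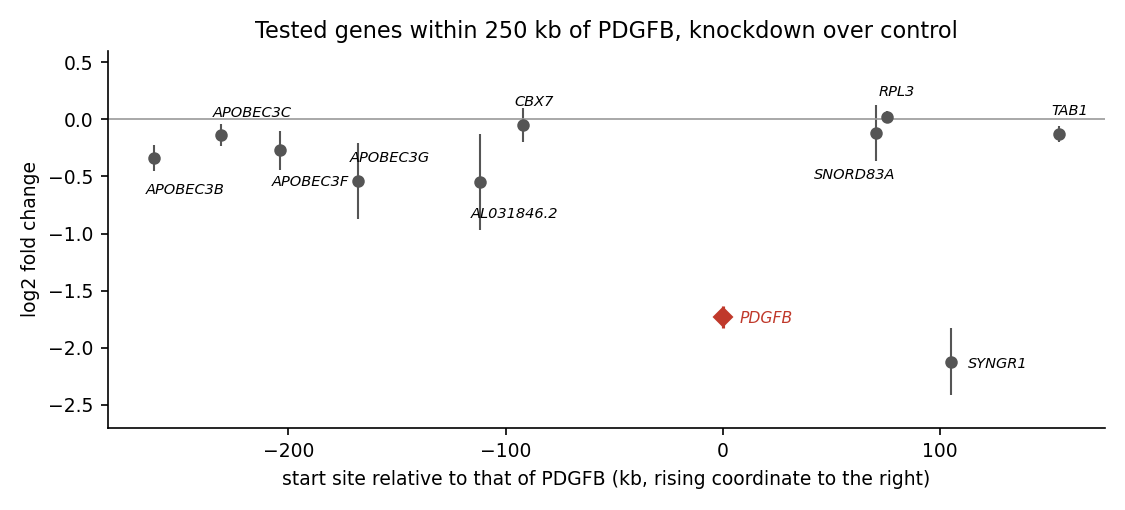
Log2 fold change of knockdown over control (edgeR with the replicate block, bars give the SE) for PDGFB and the 10 tested genes within 250 kb, plotted against the distance of each start site from that of PDGFB in kb. PDGFB at -1.73 and SYNGR1 at -2.12 lie apart from the others, which lie between -0.55 and 0.02.

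The rest of the pathway was followed through 6 lists by role, with 95 different genes tested. The lists were chosen with earlier results of these data known, so their shares are a description. In edgeR with the block 22 of them fell (23.2%, against 8.01% of all genes) and 3 rose (3.16%, against 5.48% of all genes), and the median log2 fold change was -0.12, against 0 for all genes. Without the block edgeR called 0 of the 95, with 10 at an unadjusted p under 0.05 against 954 of all 14844 genes. DESeq2 without the block called 5 of the 95, against 161 of all genes. In replicates 2 and 3 alone 35 fell and 12 rose, where 27.6% of all genes passed, 14.9% lower and 12.7% higher. The median of the 95 ranged from -0.16 to -0.07 over the other fits with the block, and was -0.03 without control replicate 1 and no block. Of the 25 genes called with the block, 16 were called in each of the 8 fits with it, and the 9 that were not are marked below. Unless stated otherwise, log2 fold changes and calls of the list genes are from edgeR with the block. By list, in the order below, 30.8%, 37.5%, 14.7%, 33.3%, 28% and 14.3% fell, against 8.01% of all genes. In the same order 7.69%, 12.5%, 0%, 0%, 4% and 0% rose, against 5.48% of all genes. Every knockdown library lay below every control library for 7.38% of all genes tested.

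Among genes that process, bind or retain the ligands, 13 were tested, of which 4 fell and 1 rose, with a median of -0.10. NRP1, which encodes neuropilin 1, a co-receptor able to bind PDGFs, was at 55.5, 68.8 and 67.7 CPM in knockdown replicates 1 to 3, against 119, 117 and 113 CPM in control replicates 1 to 3. The groups did not overlap, and its log2 fold change was -0.87 ± 0.0827 (SE, edgeR adjusted p = 0.00076 with the block and 0.49 without). PLAU, the urokinase gene, whose product can release active PDGF-D, was at 312, 324 and 323 CPM in knockdown replicates 1 to 3, against 588, 509 and 505 CPM in control replicates 1 to 3. Its groups did not overlap either (-0.74). LRP1, an endocytic co-receptor of PDGFRB (-0.76), and NDST1, an enzyme of heparan sulfate synthesis (-0.35), fell as well, with LRP1 at 2.20 log2 higher in replicate 1. The call of NDST1 was lost without pair 2 (edgeR adjusted p = 0.056) or pair 3 (0.067). The rise, named after its values were seen, was that of EXT1 (0.32), a heparan sulfate polymerase, and its call was lost without pair 2 (edgeR adjusted p = 0.19) or pair 3 (0.25). SPARC (-0.04), a matrix protein that binds PDGF-B, and the sheddase gene ADAM10 (-0.10) did not pass. Without pair 1 SPARC passed (edgeR adjusted p = 0.0038). FURIN, which cleaves PDGF precursors, was also named after its values were seen. It averaged 147 ± 7.48 CPM in knockdown and 178 ± 15.5 CPM in control libraries (SD, n = 3 each) and did not pass. FURIN did pass in edgeR with RLE scaling (adjusted p = 0.045), with no filter (0.0023), without pair 1 (0.00036) and without pair 3 (0.039).

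Of the related growth factors and receptors 8 genes were tested, of which 3 fell and 1 rose. Their median was -0.47 with the block, but -0.40, 0.03 and -0.74 in pairs 1 to 3, -0.25 with the block without pair 3, and 0.21 without control replicate 1 and no block. VEGFA, the main angiogenic factor of the PDGF and VEGF superfamily, was at 67.9, 17.3 and 16.7 CPM in knockdown replicates 1 to 3, against 127, 25.3 and 26.1 CPM in control replicates 1 to 3. Within pairs it was lower in the knockdown, and replicate 1 of both groups exceeded every other library (log2 fold change -0.72, edgeR adjusted p = 0.0024 with the block and 1.0 without). The lymphangiogenic factor gene VEGFC (-0.73) and the macrophage growth factor gene CSF1 (-0.81) fell too, and were higher in replicate 1 by 2.07 and 1.90 log2. KITLG, the gene of the KIT ligand, was called higher (0.32), a call lost with DESeq2 (adjusted p = 0.093) and in edgeR without pair 2 (0.23) or pair 3 (0.14). The VEGF receptor ligand genes VEGFB (-0.01) and PGF (-0.21) did not pass.

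Of the signalling genes below the receptors 34 were tested, of which 5 fell and 0 rose, with a median of -0.10. MAPK3, which encodes the kinase ERK1, was at 18, 11.3 and 14.1 CPM in knockdown replicates 1 to 3, against 48.0, 27.1 and 26.9 CPM in control replicates 1 to 3. Its groups did not overlap (log2 fold change -1.21 ± 0.113, SE, edgeR adjusted p = 0.00067 with the block and 0.58 without). RASA1, a Ras GTPase activator (-0.59), the kinase gene SRC (-0.53) and, named after its values were seen, the adaptor gene CRKL (-0.24) were also among those that fell. The call of CRKL was lost with DESeq2 (adjusted p = 0.074), with upper-quartile scaling in edgeR (0.059) and without pair 2 (0.15) or pair 3 (0.14). The phosphatase gene PTPN11 (0.01) and the kinase gene YES1 (-0.06) did not pass, though YES1 passed without pair 1 (edgeR adjusted p = 1e-05). Of 9 negative regulators of the receptors 3 fell and 0 rose, with a median of -0.23 (-0.14 with the block without pair 1). They were the ubiquitin ligase gene CBLB (-0.67), the caveolin gene CAV1 (-0.56) and the receptor phosphatase gene PTPRJ (-0.50), while the ubiquitin ligase gene CBL (-0.26) and the phosphatase gene PTPN1 (0.01) did not pass. The call of CBLB was lost with DESeq2 (adjusted p = 0.11) and in edgeR without pair 1 (0.056), pair 2 (0.11) or pair 3 (0.065). CBL passed in edgeR without pair 1 (adjusted p = 0.0048) and with no filter (0.003).

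Of genes known to respond to serum or PDGF in fibroblasts 25 were tested, of which 7 fell and 1 rose. Their median was -0.16 with the block, but -0.35, -0.06 and -0.09 in pairs 1 to 3, -0.08 with the block without pair 1, and 0.22 without control replicate 1 and no block. EGR1, a zinc finger factor induced within minutes of growth factor addition and known to act on the PDGFA and PDGFB promoters, was at 562, 41.1 and 39.8 CPM in knockdown replicates 1 to 3, against 849, 75.9 and 73.3 CPM in control replicates 1 to 3. Replicate 1 of both groups stood above the rest, by 3.65 log2, and within each pair the knockdown library was lower (log2 fold change -0.77, edgeR adjusted p = 0.00078 with the block and 1.0 without). CCND1, the cyclin D1 gene, was at 232, 459 and 467 CPM in knockdown replicates 1 to 3, against 591, 777 and 796 CPM in control replicates 1 to 3, with no overlap (-0.96). The transcription factor genes JUN (-0.53) and ATF3 (-0.40) fell, as did, named after their values were seen, SPRED2 (-0.36), an inhibitor of Ras signalling, the ERK phosphatase gene DUSP5 (-0.34) and the serum response factor gene SRF (-0.24). The call of ATF3 was lost with DESeq2 (adjusted p = 0.15), with upper-quartile scaling in edgeR (0.064) and without pair 2 (0.13) or pair 3 (0.18). That of SRF was lost with DESeq2 (adjusted p = 0.16), with upper-quartile scaling in edgeR (0.079) and without pair 2 (0.17) or pair 3 (0.16). Without pair 2 the calls of SPRED2 (edgeR adjusted p = 0.058) and DUSP5 (0.069) were lost too. The rise, likewise named afterwards, was that of MYC, which averaged 379 ± 25.1 CPM in knockdown and 293 ± 9.71 CPM in control libraries (0.37). FOSL1 (0.07), a Fos family member, and SPRY4 (-0.24), an inhibitor of receptor signalling, did not pass. In edgeR FOSL1 passed without pair 1 (adjusted p = 0.0019) and SPRY4 passed with no filter (0.0045). Of 7 factors known to act on the PDGFA or PDGFB promoter, EGR1 fell and 0 rose. Their median was 0.01 (-0.08 to -0.03 with the block and a pair left out). ETS1 (0.03) and the hypoxia factor gene HIF1A (0.10) did not pass, though HIF1A passed without pair 1 (edgeR adjusted p = 0.021).

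**Figure D5:**
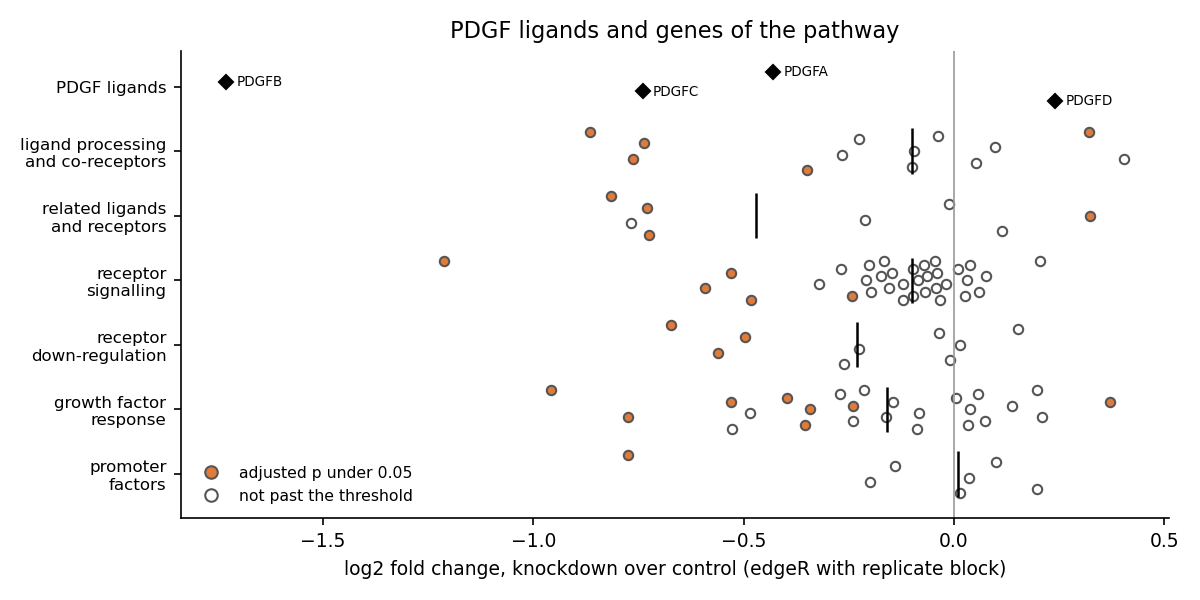
Log2 fold change of knockdown over control in edgeR's fit with the replicate block for the 4 PDGF ligands (black diamonds) and the tested members of 6 pathway lists, filled where the adjusted p was under 0.05, with a black line at each list's median. PDGFB lies at -1.73 and the list medians lie between -0.47 and 0.01.

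Markers of cells that normally carry the receptors or secrete PDGF-B were mostly low. Of 9 fibroblast and mural cell markers 3 averaged at least 1 CPM (RGS5, CSPG4 and ACTA2), and DCN had no count in any library. The summed level of the 9 was 70.4 to 106 CPM in knockdown and 84.6 to 156 CPM in control libraries. CSPG4 made up most of it, at 73.7 ± 22.3 CPM in knockdown and 99.9 ± 40.8 CPM in control libraries (SD, n = 3 each). Of 6 endothelial markers 3 averaged at least 1 CPM (PECAM1, CDH5 and KDR). The sum of the 6 was 54.4 to 58.0 CPM in knockdown and 126 to 166 CPM in control libraries. CDH5, the vascular cadherin gene, made up most of it, at 53.7 ± 2.95 CPM in knockdown and 140 ± 17.8 CPM in control libraries (SD, n = 3 each). The means of PECAM1 (1.05 ± 1.27 against 1.97 ± 2.33 CPM), KDR and VWF were also lower in the knockdown, with a wide spread for PECAM1. That of TEK was higher (0.258 against 0.0653 CPM), and that of ERG was near equal (0.0222 against 0.0228 CPM). The endothelial sum, mostly CDH5, was lower in the knockdown, as PDGFB was, and its part in the PDGFB difference was not tested. Of 6 macrophage and megakaryocyte markers 0 averaged 1 CPM, AIF1 and PF4 had no count, and the sum was 0.731 to 1.44 CPM in knockdown and 0.754 to 1.2 CPM in control libraries.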

How the data were processed

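RNA-seq libraries of Mum-2b cells (3 knockdown, 3 control) were analysed from raw counts per gene and FPKM values, both as the authors deposited them. Per the submitters' processing notes the build was hg38, and the aligner, the counting program, the FPKM tool and the use of strand are not given in the sources used here. RNA was extracted with either of 2 kits, per the labels' protocols, and which library had which is not given there.

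Genes were kept by filterByExpr, scaled by TMM and tested with edgeR 4.0.16 (R 4.3.3) quasi-likelihood F-tests with Benjamini-Hochberg adjustment over 14844 genes. CPM were computed on TMM-scaled library sizes. The SE given with an edgeR value is its absolute log2 value divided by the square root of its F statistic. It is thus derived from the test, and for the knockdown differences of the members it is a description too. The main fit had no replicate term. Deviations from the group mean were correlated between libraries of the same number (0.821, 0.591 and 0.578 over genes for replicates 1 to 3), so the numbers paired the samples by this check of the data, not by the labels, and values with the replicate block are given. Its 2 residual degrees of freedom rest partly on replicates 2 and 3, whose counts were close to sampling noise (chi-square over degrees of freedom 2.02 to 2.16 within a group, and 86.1 or more against replicate 1). DESeq2 1.42.0, other scaling, no filter and left-out libraries were alternatives.

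Members and lists were chosen with earlier results of these data known. Named genes were the members, NELFCD, the tested genes within 250 kb of PDGFB, the 5 genes most correlated with PDGFB and 2 with each other ligand, and per list up to 4 passing genes of largest change (mean CPM at least 1) and the 2 highest-level genes that did not pass. The 6 pathway lists were ligand processing, related growth factors and receptors, receptor signalling, receptor down-regulation, growth factor response and promoter factors, beside 4 marker lists. The values of 1 list gene that the rule names are not reported here. Promoters were matched in RefSeq (GRCh38.p14) by symbol for 4 of the 6 members.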

Additional observations from a re-analysis of the deposited data

Results flagged for a closer look

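For PDGFC the test of a difference between the knockdown effect of pair 1 and that of pairs 2 and 3 passed the threshold, with an interaction log2 difference of -0.68 ± 0.118 (SE, edgeR adjusted p = 7.2e-06). The knockdown library held 43.0% of the control level in pair 1 and 70.1% and 67.4% in pairs 2 and 3, lower than control in 3 of 3 pairs. NELFCD passed as well, at -0.52 ± 0.131 (SE, edgeR adjusted p = 0.0029), with 31.5% of the control level left in pair 1 and 42.4% and 48.2% left in pairs 2 and 3. For PDGFC the interaction is built from the knockdown differences by which the family was proposed, so its result is a description. Both p-values use each gene's own spread, which edgeR combines with a trend over all genes tested. Pair 1 is 1 knockdown and 1 control library. A gene's own spread therefore comes from replicates 2 and 3 alone, with 2 residual degrees of freedom. These replicates differed little beyond sampling noise (chi-square over degrees of freedom 2.02 and 2.16), while replicate 1 differed from them by 86.1 or more, so a library effect in pair 1 and another size of the knockdown difference cannot be told apart. The remaining NELFCD level was lowest in the pair where PDGFC differed most, and its part in the PDGFC difference was not tested.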

How the results depend on the processing

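The log2 fold changes ranged over 10 fits without the replicate block from -0.77 to -0.04 for PDGFA, -2.31 to -1.12 for PDGFB, -0.88 to -0.34 for PDGFC and 0.01 to 0.38 for PDGFD. Over 8 fits with the replicate block they ranged from -0.48 to -0.34, -1.81 to -1.67, -0.88 to -0.54 and -0.01 to 0.48 in the same order. The number of genes called between knockdown and control was 0 in edgeR without the block, 161 with DESeq2 and 2002 with the replicate block. With the replicate block it was 1358 with DESeq2, 2040 with RLE scaling, 2184 with upper-quartile scaling and 2888 with no filter. It was 0 with any 1 library left out without the block, and with the block 4090 without pair 1, 932 without pair 2 and 1760 without pair 3. For the genes of the 6 pathway lists these numbers were 0 without the block, 5 with DESeq2 and 25 with the replicate block. With the replicate block they were 21 with DESeq2, 27 with RLE scaling, 24 with upper-quartile scaling and 34 with no filter, and 0 with any 1 library left out without the block, against 16 to 47 with the block and a pair left out (47 without pair 1). The interaction called 598 genes with DESeq2 and 1932 in edgeR. In replicate 1 against the others, PDGFA, PDGFB and PDGFC kept their direction and call in the 9 alternatives run, while PDGFD ranged from -0.79 without knockdown replicate 1, where it passed, to 0.01 without control replicate 1. Some named genes changed sign. VEGFB was at -0.01 with the block or no filter, -0.0016 with RLE scaling, -0.0015 with DESeq2, and -0.02, -0.02 and -0.03 with the block and DESeq2, RLE scaling or no filter. SPARC was at 0.01 with the block and upper-quartile scaling. PTPN11 was at -0.0006, -0.00061 and -0.006 with the block and DESeq2, RLE scaling or no filter. PTPN1 was at -0.00012, -0.0035 and -0.00013 with RLE scaling, no filter or DESeq2, and at -0.001 with the block and no filter. With a library left out the ranges that crossed 0 were -1.89 to 0.38 for LRP1, -0.25 to 0.08 for SPARC, -0.18 to 0.05 for ADAM10, -1.76 to 0.11 for CSF1, -1.79 to 0.31 for VEGFC, -1.81 to 0.40 for VEGFA, -0.05 to 0.78 for KITLG, -0.44 to 0.37 for VEGFB, -0.85 to 0.41 for PGF, -0.20 to 0.22 for PTPN11, -1.43 to 0.08 for CBLB, -0.16 to 0.16 for PTPN1, -3.05 to 1.52 for EGR1, -0.87 to 0.05 for ATF3, -0.07 to 0.22 for FOSL1, -0.82 to 0.38 for SPRY4 and -0.11 to 0.12 for ETS1. Among neighbours of PDGFB they were -1.2 to 0.55 for APOBEC3F, -2.06 to 0.90 for APOBEC3G, -1.93 to 1.03 for AL031846.2, -1.2 to 1.2 for CBX7, -0.42 to 0.08 for SNORD83A and -0.27 to 0.29 for RPL3. With a pair left out under the block they were -0.11 to 0.0085 for SPARC, -0.19 to 0.0028 for ADAM10, -0.07 to 0.05 for VEGFB, -0.41 to 0.02 for PGF, -0.17 to 0.0092 for YES1, -0.01 to 0.04 for PTPN1, -0.03 to 0.07 for ETS1, -0.24 to 0.0089 for APOBEC3C, -0.22 to 0.21 for CBX7, -0.40 to 0.03 for SNORD83A and -0.0063 to 0.04 for RPL3. The cause of these changes was not tested. The intervals given for PDGFRA and PDGFRB cover counting error alone and not the spread between libraries. At this depth the size of either difference between the groups stays unknown.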

Other observations

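Other receptor kinases of the PDGF and VEGF receptor families were also scarce in these cells. CSF1R, the receptor of CSF1, averaged 0.350 ± 0.112 CPM in knockdown and 0.380 ± 0.029 CPM in control libraries (SD, n = 3 each). KIT, the receptor of KITLG, averaged 0.0827 ± 0.0920 CPM in knockdown and 0.0914 ± 0.158 CPM in control libraries, and FLT3 had a count in 1 of 6 libraries. FLT1 had counts in 4 libraries and FLT4 in 2. KDR, the main VEGF receptor gene, passed the filter on low counts, at 1.26 ± 0.911 CPM in knockdown and 2.02 ± 0.333 CPM in control libraries, and did not pass the edgeR test with the replicate block. PDGFRL, a gene named for its likeness to the receptors, averaged 1.37 ± 0.682 CPM in knockdown and 1.27 ± 0.623 CPM in control libraries.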
